A study of Arabidopsis thaliana with 18 samples.

Results

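Of the 13286 Arabidopsis genes that a probe set of their own measured, 4 that encode proline-rich or lipid-transfer-like wall proteins are described here: AT1G62510, AT2G22510, AT4G38080 and AT4G12500. They were chosen by measured values of these arrays. AT1G62510, AT2G22510 and AT4G38080 were selected on their falls with bacteria, and AT4G12500 on its low level in a line that overexpresses the transcription factor MYB72. Averaged over the genotypes, the falls of the first 3 genes held ranks 2, 3 and 7 from the lowest among 13436 single-gene probe sets. AT4G12500 held rank 1 from the lowest in the overexpressor against either other genotype without bacteria. These values are therefore a description, with no test. Tests are given for the other contrasts of each gene.

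Roots of 19-day-old seedlings were profiled on 18 Affymetrix ATH1 arrays, in 6 groups of 3. Wild-type Col-0 plants were set beside the mutant myb72-2, in the same background, and beside oxMYB72, in which FLAG-tagged MYB72 behind the viral 35S promoter was brought into myb72-2. Plants of oxMYB72 therefore carry the myb72-2 mutation as well, and that promoter is active in most cell types. The labels do not say whether oxMYB72 is a single line. Each genotype was left untreated or received 10 µl of a suspension of the root-colonizing bacterium Pseudomonas WCS417 on each root at 17 days of age, and was harvested 2 days later. The controls are labelled as untreated, so bacteria and suspension medium cannot be told apart. The series describes the 3 arrays of a group as biological replicates, without saying how the plants were grown or pooled for them.

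Proline-rich and hydroxyproline-rich proteins are secreted into the plant cell wall, where they can be cross-linked and change its strength. Lipid-transfer-like proteins share a fold held together by a conserved cysteine motif, with a cavity that can hold a lipid. The hybrid proline-rich proteins join both: a proline-rich stretch is followed by the cysteine domain. AT4G12500 lies in a row of such genes on chromosome 4 that includes AZI1 and EARLI1, which are known for roles in systemic immunity and in responses to cold and pathogens. AT1G62510 belongs to the same hybrid group. AT2G22510 and AT4G38080 are annotated elsewhere as hydroxyproline-rich glycoprotein family members, and no function of either is given here. WCS417 triggers induced systemic resistance in leaves, and MYB72 is needed in roots for its onset. Protein classes come from general knowledge of these loci, since the annotation used pairs probe sets with loci only.

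Correlations between replicates lay between 0.9913 and 0.9977 over all probe sets, and 0 pairs of arrays were identical. PYK10, a root-specific beta-glucosidase and the only measured one of 3 general root markers, lay between 13.4 and 13.8 on the log2 scale in all arrays. The annotation used names no probe set for MYB72, so its level could not serve as a check of the genotypes. All values are log2 expression made with RMA. Levels of different probe sets are not comparable, so each gene is followed only across the groups.

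The 3 genes picked for their falls lost between 3.35-fold and 5.33-fold of their signal with WCS417 in every genotype. AT1G62510, the hybrid proline-rich gene, read 9.04, 8.97 and 9.20 in the Col-0 control arrays and 6.70, 6.61 and 6.67 with WCS417. In myb72-2 it read 8.77, 9.02 and 8.73 without bacteria and 6.49, 6.44 and 6.44 with them. In oxMYB72 it read 9.06, 9.02 and 8.87, then 6.53, 6.28 and 6.94. All 9 control arrays lay above all 9 WCS417 arrays, with no value between 6.94 and 8.73. The log2 differences were -2.41 in Col-0, -2.39 in myb72-2 and -2.40 in oxMYB72, each ± 0.13 (SE), or 5.33-fold, 5.23-fold and 5.27-fold. The third oxMYB72 array with WCS417 was the highest of the 9, and without it the oxMYB72 difference was -2.58.

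AT2G22510, a hydroxyproline-rich family member, fell by a similar amount but scattered more. Its Col-0 values were 8.62, 8.63 and 8.40 without bacteria and 6.82, 6.11 and 6.71 with WCS417. The myb72-2 arrays read 8.44, 8.68 and 8.55, then 6.31, 5.40 and 6.88. The oxMYB72 arrays read 8.74, 8.64 and 8.01, then 5.49, 6.10 and 6.77. Again the 9 control arrays lay above the 9 WCS417 arrays. The log2 differences were -2.01, -2.36 and -2.35 (± 0.3 SE each), or 4.02-fold, 5.14-fold and 5.09-fold in Col-0, myb72-2 and oxMYB72. The WCS417 arrays of a group spread over a pooled SD of 0.61 for this gene, against 0.25 in control arrays.

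AT4G38080, the other hydroxyproline-rich family member, moved from 11.56, 11.30 and 11.30 to 9.77, 9.22 and 9.95 in Col-0. In myb72-2 the arrays read 11.27, 11.46 and 11.50 without bacteria and 9.53, 9.37 and 9.82 with WCS417. In oxMYB72 they read 11.46, 11.56 and 11.11, then 9.01, 9.49 and 9.83. No WCS417 array reached the lowest control array, in this gene as in the other two. The differences were -1.74, -1.84 and -1.93 on the log2 scale (± 0.19 SE each), or 3.35-fold, 3.58-fold and 3.81-fold. Pooled SDs were 0.18 in control arrays and 0.35 with WCS417. As background to these falls, 8.96% of all probe sets were called lower with WCS417 in Col-0, 12.9% in myb72-2 and 9.09% in oxMYB72, where called means a limma adjusted p under 0.05.

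**Figure D1:**
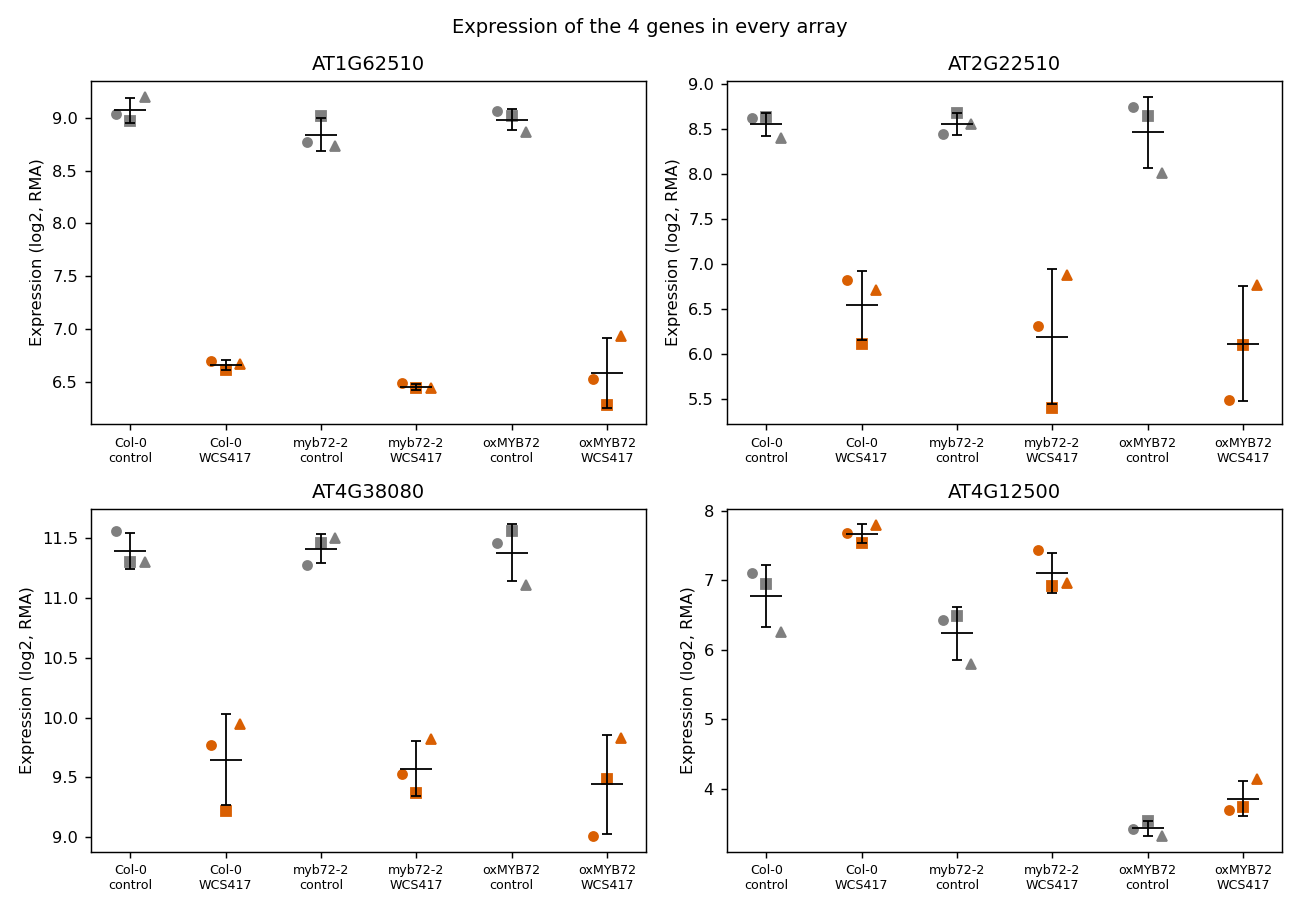
Log2 expression of the 4 genes in every array, by group. Each point is 1 array, with a different shape for replicates 1, 2 and 3, and the line and bar give the group mean and SD of 3 arrays. In AT1G62510, AT2G22510 and AT4G38080 all WCS417 arrays lie under all control arrays, while AT4G12500 is low in the oxMYB72 arrays, between 3.32 and 4.14.

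Whole roots were measured, so fewer cells of a type and less RNA per cell cannot be told apart. Marker genes moved with WCS417 too. The 2 measured of 17 green-tissue markers, the antenna protein genes LHCB4.1 and LHCB4.2, fell by 1.01 and 1.20 on the log2 scale (limma adjusted p = 7.33e-10 and 1.15e-10). Their summed log2 level ranged over 15.24 to 16.06 in Col-0 controls against 13.27 to 13.56 with WCS417, over 15.82 to 15.92 against 12.81 to 13.38 in myb72-2, and over 14.63 to 15.14 against 12.87 to 13.48 in oxMYB72. Of the 3 measured of 4 root cortex markers, AT1G09750 fell by 0.50 and AT5G02000 by 0.53 (limma adjusted p = 2.02e-05 and 3.22e-06). The third, AT1G62500, gave 0.08 (limma adjusted p = 0.426). Its group means, 3.35 to 3.56, lay near the low end of the table, where a change may not show. The cortex sum ranged over 16.15 to 16.49 against 15.01 to 15.46 in Col-0, 16.21 to 16.42 against 15.35 to 16.14 in myb72-2, and 16.16 to 16.81 against 15.17 to 15.42 in oxMYB72.

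The 2 measured of 8 root hair markers, the expansin genes EXPA7 and EXPA18, rose by 0.48 and 0.74 (limma adjusted p = 0.000222 and 6.83e-08). Their sum ranged over 16.44 to 17.15 against 17.69 to 18.04 in Col-0, 16.18 to 16.77 against 17.47 to 18.13 in myb72-2, and 15.28 to 16.50 against 17.01 to 17.43 in oxMYB72. None of the 9 endodermis markers had a probe set of its own in the annotation used. The 3′ minus 5′ difference of control probe sets, a sign of RNA quality, was higher with bacteria in the AFFX-r2-At sets. Averaged over the genotypes, the change was 0.10 in actin and 0.11 in GAPDH. The GAPDH means went from -0.19 to -0.03 in Col-0, -0.11 to -0.08 in myb72-2 and -0.20 to -0.05 in oxMYB72. In the AFFX-Athal sets of the same transcripts the change was -0.13 and -0.17, so its direction depends on the control sets chosen. The actin difference itself ranged over 1.10 to 1.48 in the AFFX-r2-At sets and 3.14 to 4.13 in the AFFX-Athal sets. The part of cell types and RNA quality in the falls was not tested.

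Genotype differences of the 3 falling genes were tested in 27 contrasts, and none passed. For each gene these were the 6 genotype differences within a treatment and the 3 differences of the WCS417 effect between genotypes. Only the differences of effect bear on whether a fall depended on genotype. They are built from the WCS417 effects that picked the genes, so similar effects may have been favoured by the choice. The contrasts of a gene share arrays, so the 27 are not independent. Of the 27, 0 were called in limma and 0 had an unadjusted p under 0.05. The differences ranged from -0.43 to 0.14 on the log2 scale, and the lowest adjusted p was 0.611. Over all probe sets, 0.0396% were called between myb72-2 and Col-0 without bacteria, 6.81% between oxMYB72 and myb72-2 and 7.41% between oxMYB72 and Col-0. With WCS417 the shares were 0.127%, 5.52% and 4.26%. For the differences of effect they were 0.0176% for myb72-2 against Col-0, 1.75% for oxMYB72 against Col-0 and 2.78% for oxMYB72 against myb72-2.

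The intervals show how large a dependence on genotype these arrays could have missed. For AT1G62510 the WCS417 effect in myb72-2 minus that in Col-0 was 0.03, with a 95% interval of -0.35 to 0.41. The same difference for oxMYB72 against Col-0 was 0.01 (-0.36 to 0.39). AT4G38080 gave -0.10 (-0.66 to 0.46) and -0.19 (-0.75 to 0.37) for these contrasts. The intervals of AT2G22510 were the widest of the 3 genes, at -0.35 (-1.23 to 0.53) and -0.34 (-1.22 to 0.54) and its WCS417 arrays also scattered most. The order of group means left every neighbouring pair of genotypes overlapping within a treatment. Among pairs that are not neighbours, the myb72-2 arrays of AT1G62510 with WCS417 all lay under the Col-0 ones, with a log2 difference of -0.20 (limma adjusted p = 0.796).

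**Figure D2:**
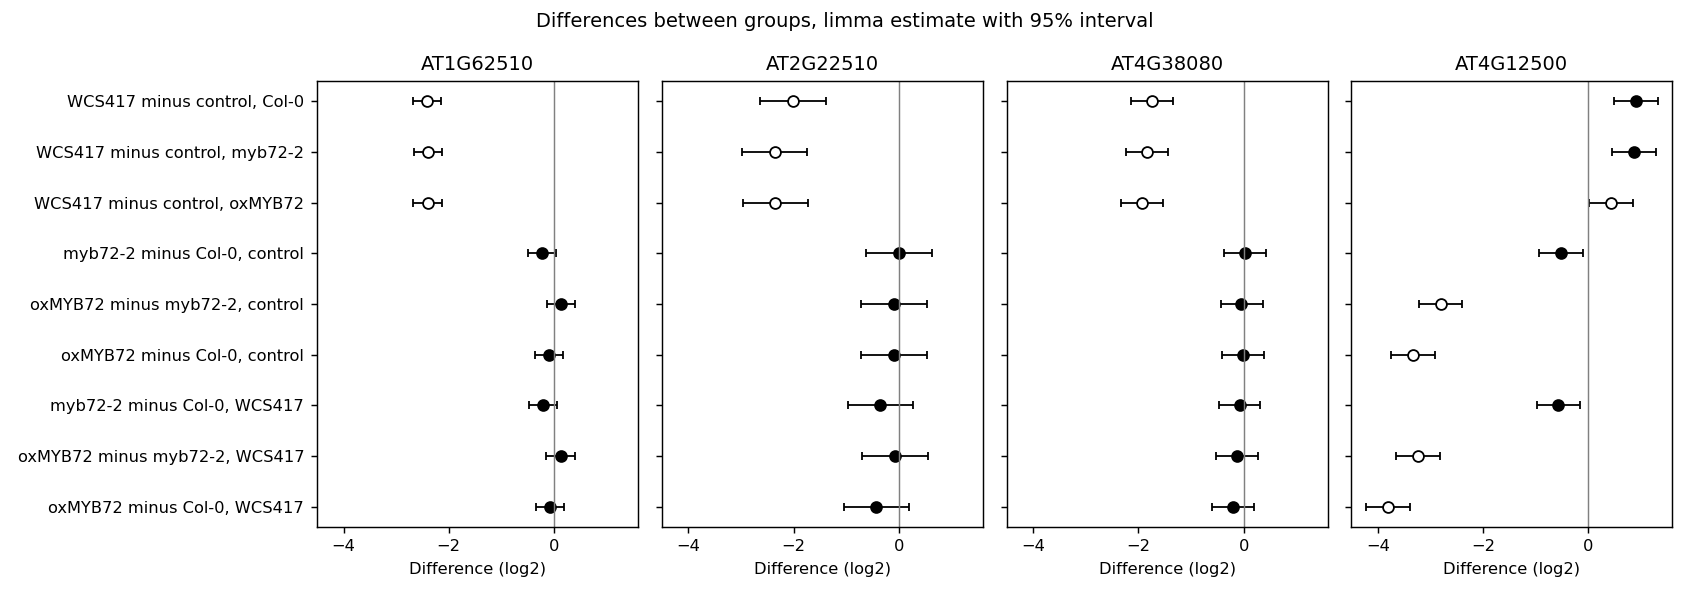
Log2 differences of the 4 genes in the comparisons of treatment and genotype, with 95% intervals from limma. The horizontal axis is the log2 difference, and open symbols mark contrasts given as a description, filled ones those tested. The 3 falling genes sit between -2.41 and -1.74 for WCS417 and between -0.43 and 0.14 for genotype, while AT4G12500 sits between -3.82 and -2.81 where oxMYB72 is compared and rises with WCS417.

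AT2G22510 and AT4G38080 also moved together among arrays of the same group. The myb72-2 array with the lowest AT2G22510 value with WCS417, 5.40, had the lowest AT4G38080 value, 9.37, and the same held in oxMYB72 at 5.49 and 9.01 and in Col-0 at 6.11 and 9.22. Over the deviations of the 18 arrays from their group means, Pearson's r between the genes was 0.86 and Spearman's rho 0.87. It was 0.82 in the 9 control arrays, 0.87 in the 9 WCS417 arrays, and 0.86 without the 2 arrays farthest from the median. The other 5 pairs of the 4 genes gave r between 0.30 and 0.43. An r of 0.86 or more with AT2G22510 was reached by 0.0835% of probe sets. These correlations are a description over arrays that share groups, and the pair was singled out after its values were seen.

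Measures of the whole array moved with these deviations in part. Deviations of AT2G22510 correlated at 0.49 with those of the actin 3′ minus 5′ difference and at -0.50 with GAPDH's, both from the AFFX-r2-At sets. For AT4G38080 the values were 0.45 and -0.40. With the array median they were -0.04 and -0.24, and with the green-tissue, cortex and root hair sums they lay between -0.29 and -0.02 for both genes. The part of these measures was not tested. Other genes followed AT2G22510 more closely within groups, with AT2G46900 at 0.92 over the same deviations.

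**Figure D3:**
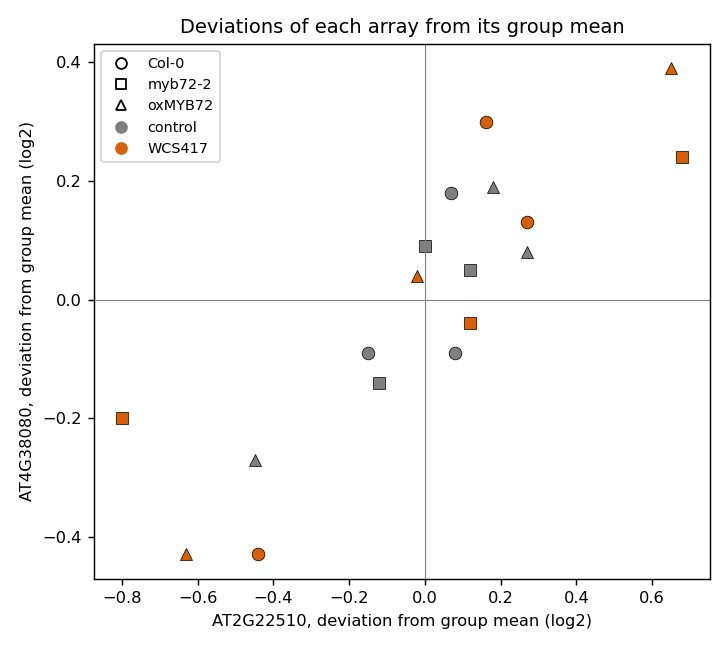
Deviation of each array from its group mean (log2), for AT2G22510 on the horizontal and AT4G38080 on the vertical axis. Each point is 1 of 18 arrays, shaped by genotype and coloured by treatment, and the points run from lower left to upper right with an r of 0.86.

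AT4G12500, the hybrid proline-rich gene of the chromosome 4 row, was picked for its low oxMYB72 level and not for a fall. Its contrast with the falling genes is therefore partly set by the choice. Its Col-0 arrays read 7.10, 6.94 and 6.26 without bacteria and 7.68, 7.53 and 7.80 with WCS417. The myb72-2 arrays read 6.43, 6.48 and 5.80, then 7.43, 6.92 and 6.96. The oxMYB72 arrays read 3.42, 3.54 and 3.32, then 3.69, 3.74 and 4.14. All oxMYB72 arrays lay under all arrays of the other genotypes, with no value between 4.14 and 5.80.

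The low level in oxMYB72 is what the gene was picked for and is given without a test. Without bacteria the log2 difference of oxMYB72 from myb72-2 was -2.81 ± 0.20, or 7.02-fold lower, and that from Col-0 was -3.34, or 10.1-fold lower. With WCS417 the differences were -3.25 and -3.82, or 9.48-fold and 14.1-fold, which ranked 8 and 4 from the lowest. The contrasts with Col-0 and myb72-2 share the oxMYB72 arrays. The lowest value of the whole table is 2.42, and RMA can compress differences near the low end. The green-tissue markers LHCB4.1 and LHCB4.2 were also lower in oxMYB72 than in myb72-2 without bacteria. Their log2 differences were -0.44 and -0.55 (limma adjusted p = 0.0431 and 0.0152). Against Col-0 controls they were -0.45 and -0.35 (limma adjusted p = 0.036 and 0.153). With WCS417 the markers were not called. They gave 0.19 and -0.10 against myb72-2 (limma adjusted p = 0.507 and 0.806), and 0 and -0.22 against Col-0 (0.997 and 0.54). The part of these markers in the difference was not tested.

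WCS417 raised AT4G12500 in both genotypes where this was tested. The control arrays of both also enter the contrasts with oxMYB72 that reflect its choice, so the tests are not fully independent of it. The rise was 0.91 ± 0.20 in Col-0 (95% interval 0.49 to 1.32, 1.87-fold, limma adjusted p = 0.00275) and 0.86 ± 0.20 in myb72-2 (0.45 to 1.28, 1.82-fold, limma adjusted p = 0.00321). In each, all 3 WCS417 arrays lay above all 3 control arrays, and 6.38% and 8.52% of probe sets were called higher in these comparisons. The rise held without any single array, with ranges of 0.65 to 1.07 in Col-0 and 0.64 to 0.99 in myb72-2. The oxMYB72 value, 0.43, is a description, as are its differences from the effects in Col-0 and myb72-2, -0.48 and -0.43. The effect in myb72-2 minus that in Col-0 was -0.04 (95% interval -0.63 to 0.54, limma adjusted p = 1).

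Between myb72-2 and Col-0 the gene differed by -0.53 without bacteria (interval -0.94 to -0.11), where the arrays overlapped (limma adjusted p = 1). With WCS417 it differed by -0.57 (interval -0.98 to -0.16), where the arrays did not overlap (limma adjusted p = 0.499). Both intervals held negative values only, but neither difference was called after adjustment over all probe sets. The missing calls therefore do not show equal levels in myb72-2 and Col-0. In order of group means, Col-0 with WCS417 was highest at 7.67 ± 0.13 (SD, n = 3), followed by myb72-2 with WCS417 at 7.10 ± 0.29. Col-0 control came next at 6.76 ± 0.45 and myb72-2 control at 6.24 ± 0.38. The oxMYB72 groups stood lowest, at 3.86 ± 0.25 with WCS417 and 3.43 ± 0.11 without. Of these neighbours, myb72-2 with WCS417 and Col-0 control overlapped, as did the controls of Col-0 and myb72-2.

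The neighbour AT4G12490, a hybrid proline-rich gene of the same row, rose with WCS417 in Col-0 and myb72-2 and differed from them in oxMYB72. Its Col-0 arrays read 4.53, 4.14 and 4.29 without bacteria and 5.81, 5.76 and 6.00 with WCS417. In myb72-2 they read 4.32, 4.19 and 4.32, then 5.35, 4.99 and 5.03. In oxMYB72 they read 3.90, 3.69 and 4.01, then 3.50, 3.96 and 4.02, and the groups overlapped. The rise was 1.54 ± 0.14 in Col-0 (limma adjusted p = 6.4e-08) and 0.85 in myb72-2 (0.000126), against -0.04 in oxMYB72 (0.887).

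The difference of effect for AT4G12490 was called both for oxMYB72 against Col-0, at -1.58 ± 0.20 (limma adjusted p = 2.73e-05), and against myb72-2, at -0.89 ± 0.20 (0.0123). For myb72-2 against Col-0 it was -0.69 ± 0.20 and was not called (limma adjusted p = 1). Only 0.0176% of all probe sets were called in that contrast, so the missing call does not show equal effects. With WCS417 the level in myb72-2 was itself lower than in Col-0, with a log2 difference of -0.74 and no overlap of the arrays (limma adjusted p = 0.0291). That call was lost in at least 5 of 6 fits without 1 array, and with only the arrays compared. Without bacteria the log2 difference of oxMYB72 from myb72-2 was -0.40, which was not called (limma adjusted p = 0.0977). With WCS417 it was -1.29 from myb72-2 and -2.03 from Col-0 (limma adjusted p = 1.55e-06 and 2.51e-09). The oxMYB72 values of this gene, 3.50 to 4.02, lie near the low end of the table, where RMA can compress differences, so the sizes of its differences involving oxMYB72 are uncertain. AT4G12530, the other measured gene of the row, stayed between 3.35 and 3.79 in group means and was not called in any comparison, with a mean WCS417 difference of 0.16 (limma adjusted p = 0.0907). AT4G12490 and AT4G12500 are close paralogs, and whether their probes read each other's transcripts was not tested.

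**Figure D4:**
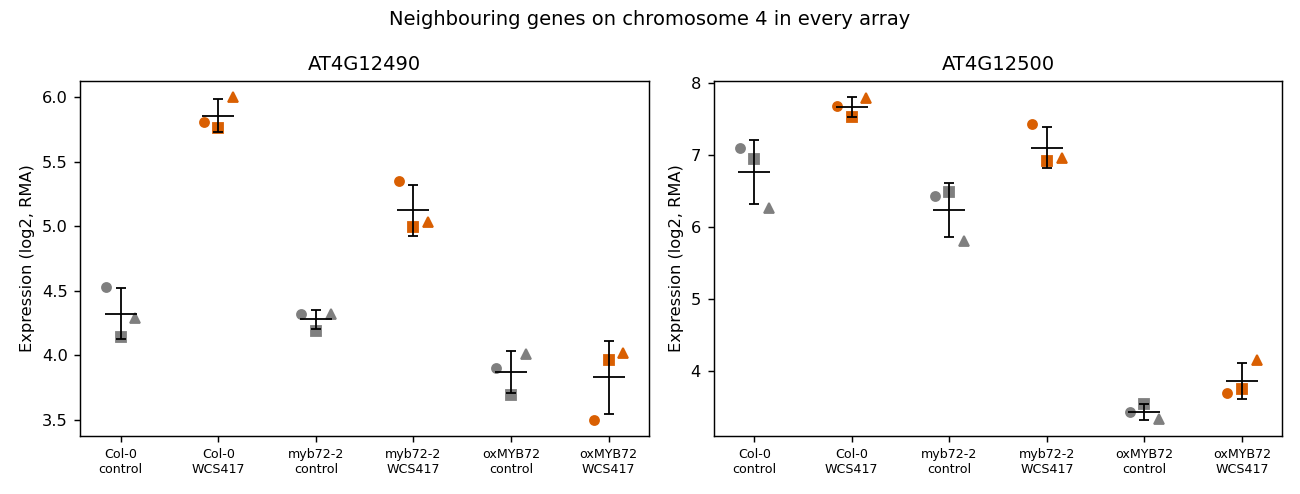
Log2 expression of AT4G12490 and AT4G12500 in every array, in separate panels with their own axes. Points are arrays, shaped by replicate, and lines and bars are group means and SD of 3 arrays. Both are high with WCS417 in Col-0 and myb72-2, while the oxMYB72 arrays lie between 3.50 and 4.02 for AT4G12490 and between 3.32 and 4.14 for AT4G12500.

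The neighbour of AT1G62510 on chromosome 1, AT1G62500, encodes a related hybrid proline-rich protein whose promoter is used to mark root cortex. Its group means lay between 3.35 and 3.56, and it was called in no comparison. It sat near the low end of the table.

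Related wall and lipid-transfer genes were taken from lists that had been drawn up with earlier results of these data known. Without the 4 genes, 43 of 98 list entries were measured. Averaged over the genotypes, 14 rose and 7 fell with WCS417, or 32.6% and 16.3%, against 18.1% and 19.5% of all probe sets. Of the 14 that rose, 8 were extensins, a list with 10 measured genes, so the pooled share of rises rests largely on that list. The median difference of the 43 genes was 0.06, against 0.02 for all probe sets. AT4G12490 was the 1 riser among the 2 measured of 8 other genes of the chromosome 4 row. Of the other hybrid proline-rich-like genes, 5 of 12 were measured and 1 fell, AT2G45180 (-0.63, limma adjusted p = 2.42e-06).

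Lipid-transfer proteins carry lipids between membranes or to the cuticle. Of 40 on the list 19 were measured, 3 rose, 4 fell and 12 did not pass, with a median of -0.02. These are 15.8% higher and 21.1% lower, near the 18.1% and 19.5% of all probe sets. The rises were in AT5G01870 (0.89), AT5G05960 (0.71) and AT3G18280 (0.27). The falls were in AT3G53980 (-1.0), AT2G37870 (-0.81), AT2G48130 (-0.45) and AT3G22620 (-0.36). All were smaller than the fall of AT1G62510, which was chosen for the size of its fall.

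The proline-rich list held the fall most like those of AT2G22510 and AT4G38080. Of its 17 other genes 7 were measured, and AT3G19430 fell by 1.74 and AT5G09480 by 1.16 on the log2 scale (limma adjusted p = 1.65e-11 and 6.33e-11). AT3G19430 went from 7.87 ± 0.26 to 6.03 ± 0.24 (SD, n = 3) in Col-0, from 7.66 ± 0.13 to 5.90 ± 0.09 in myb72-2 and from 7.77 ± 0.27 to 6.14 ± 0.40 in oxMYB72. AT2G47540 rose by 0.26 and AT1G23720 by 0.33, and the latter lost its call in 7 of 18 fits that left out 1 array each. The median of this list was -0.01.

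Extensins, hydroxyproline-rich structural proteins that cross-link in the wall, differed in direction from the 3 falling genes. Of 21 listed 10 were measured, 8 rose and 0 fell, where 18.1% and 19.5% of all probe sets did. Their median was 0.65, against 0.02 for all probe sets. The largest were AT1G26240 (2.93 ± 0.13), AT1G26250 (1.32 ± 0.10), AT5G06630 (0.88) and AT4G08410 (0.81). The last pair, HRGP1 and AT1G23720 are read by probe sets that share probes with similar genes, so their identity is uncertain. Counts that include such probe sets may hold the same transcripts more than once. AT1G26240 rose by 4.00 in Col-0 and 3.84 in myb72-2, and by 0.94 in oxMYB72 (limma adjusted p = 0.00603). Its group mean went from 4.30 ± 0.42 to 8.30 ± 0.31 (SD, n = 3) in Col-0 and from 4.76 ± 0.26 to 5.71 ± 0.34 in oxMYB72. Root hair marker genes rose with WCS417 too, and their part in these rises was not tested.

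Between oxMYB72 and myb72-2 without bacteria, 1 of the 43 related genes was higher, AT2G44300 (0.83, limma adjusted p = 7.29e-06), and 1 was lower, AT5G01870 (-0.67, limma adjusted p = 0.0146), against 3.53% and 3.27% of all probe sets. The latter call was lost without the first control array of either genotype. The median of the related genes was -0.09, against -0.04 for all probe sets. With WCS417, 1 was higher and 5 were lower, or 2.33% and 11.6%, against 2.86% and 2.66% of all probe sets. The 5 were AT1G26240 (-3.03), AT4G12490 (-1.29), AT1G26250 (-0.74), AT3G22620 (-0.53) and AT4G22460 (-0.38), and 3 were called with only the arrays compared. Some of these were named after their values were seen.

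Against Col-0, 1 related gene was higher and 3 were lower in oxMYB72 without bacteria, or 2.33% and 6.98%, against 3.83% and 3.58% of all probe sets. The count of 3 became 1 with median centring or without the first Col-0 control array, and 0 without the first oxMYB72 control array. With WCS417, again 1 was higher and 3 were lower, against 2.02% and 2.24% of all probe sets. The contrasts with Col-0 and with myb72-2 share the oxMYB72 arrays.

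**Figure D5:**
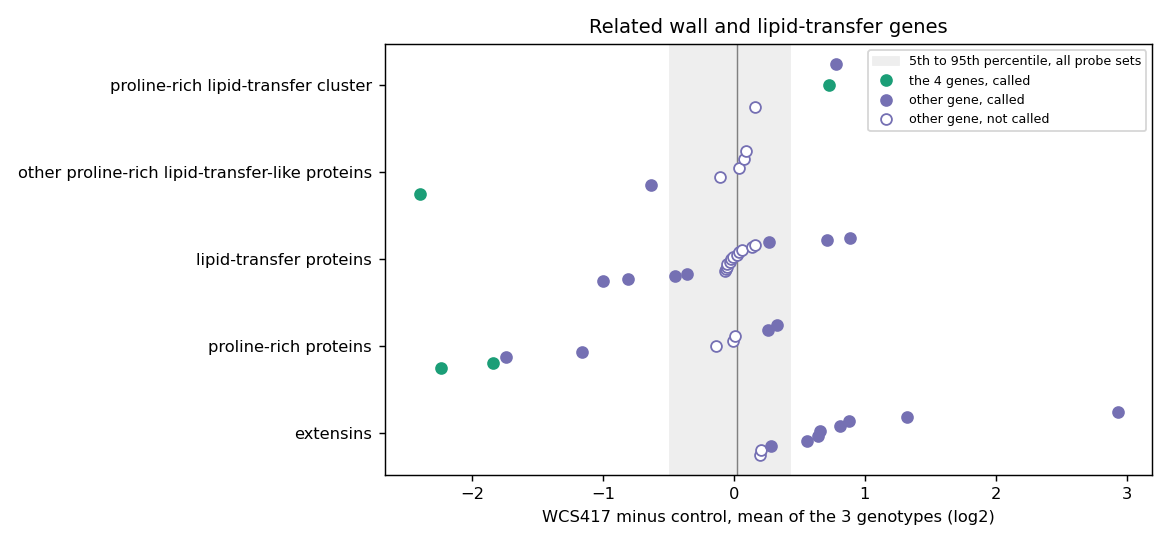
Mean WCS417 difference over the 3 genotypes (log2, horizontal axis) for the genes of each list, 1 point a gene. The grey band holds the middle of all probe sets, from the 5th percentile at -0.49 to the 95th at 0.43, and filled points are called. The 4 genes described here are drawn in their own colour, and their fill is a description and not a test. Extensins lie to the right, up to 2.93, and AT1G62510, AT2G22510, AT4G38080 and AT3G19430 lie farthest to the left.

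The genes most like each of the 4 over the 18 arrays were found by Pearson's r, which here carries the treatment and genotype differences as well as the scatter. For AT1G62510 they were AT5G61820 (r 0.984), AT1G49960, of a nucleobase transporter family (0.981), and AT5G54300 (0.981). The most opposed was AT2G43620, of the chitinase family (-0.984), which rose by 3.28 with WCS417 averaged over the genotypes. AT2G22510 was nearest to AT4G38080 (0.984), followed by AT2G23540, a GDSL-type esterase gene (0.965), and AT5G18640 (0.963). AT4G38080 was nearest to AT2G23540 and AT2G22510 (0.984 each) and AT1G53560 (0.978). Both shared the most opposed gene, AT5G04730, at -0.959 and -0.975. AT4G12500 was most like AT1G64405 (0.931), the calmodulin-like gene AT1G24620 (0.915) and AT4G31470 (0.907), and most unlike AT4G16830, an RNA-binding protein gene (-0.961). AT1G64405 differed between oxMYB72 and myb72-2 without bacteria by -1.22, less than AT4G12500.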

How the data were processed

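Polyadenylated RNA of Arabidopsis roots was measured on 18 single-colour arrays. The deposited log2 values were made by the authors with RMA, per the submitters' processing notes, with no version stated there. The log2 scale is inferred from RMA and from a range of 2.42 to 14.63. Of 22810 probe sets, 64 controls were left out. A single limma fit (3.58.1, R 4.3.3) of 6 group means to all arrays, moderated by eBayes, gave every comparison, two-sided, adjusted by Benjamini-Hochberg over 22746 probe sets. The threshold for a call was an adjusted p under 0.05. Intervals are at 95%, and errors after ± are standard errors unless given as SD. Gene names came from the platform annotation, of which 13436 single-gene probe sets matched a locus in a RefSeq table. Lists used the probe set with the highest mean per gene.

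The 4 genes and the lists were chosen with earlier results of these data known. Named genes were the 4, the chromosome 4 row, AT1G62500, up to 4 called rises and falls of each list, and the 3 most alike and 1 most opposed gene. AT2G46900 and the genes named for oxMYB72 with WCS417 were added after values were seen. Other settings tried were repeated quantile normalization, centring on array medians, limma-trend with robust moderation, fits to the compared arrays alone, removal of the 30% of probe sets with the lowest means, the replicate number as a block, and fits without 1 array. RNA quality was read from the AFFX-r2-At control sets after a first reading of the AFFX-Athal sets, and both are given. The number of arrays limits the precision, and the p-values reflect the variation among these arrays, part of which may be technical. The fit was also run on simulated arrays with independent noise in each probe set and array, unlike real arrays, and no outcome is given here. Plots were made in matplotlib 3.10.9 (Python 3.11.15).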

Additional observations from a re-analysis of the deposited data

Results flagged for a closer look

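The WCS417 effect differed between genotypes for AT4G12490, the neighbour of AT4G12500, by the interaction term of the limma model. The effect in oxMYB72 minus that in Col-0 was -1.58 ± 0.20 (adjusted p = 2.73e-05), and minus that in myb72-2 it was -0.89 ± 0.20 (adjusted p = 0.0123). Its oxMYB72 arrays lay between 3.50 and 4.02, near the low end of the table, where RMA can compress differences. The extensin gene AT1G26240 was marked in the same way, with -3.05 ± 0.33 against Col-0 (limma adjusted p = 3.86e-06) and -2.90 ± 0.33 against myb72-2 (limma adjusted p = 6.77e-06). Its oxMYB72 arrays read 5.04, 4.52 and 4.73 without bacteria and 5.59, 6.09 and 5.44 with WCS417.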

How the results depend on the processing

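No tested difference of the 4 genes lost or gained a call under any alternative fit, and the falls of AT1G62510, AT2G22510 and AT4G38080 and the rise of AT4G12500 in Col-0 and myb72-2 kept their direction in all. Differences near 0 that were never called changed sign. With quantile normalization these were AT2G22510 between myb72-2 and Col-0 controls (-0.01), AT4G38080 between oxMYB72 and Col-0 controls (0.01) and the AT2G22510 effect in oxMYB72 against myb72-2 (-0.01). With median centring they were AT4G38080 between oxMYB72 and myb72-2 controls (0.02) and Col-0 controls (0.05), the AT1G62510 effect in oxMYB72 against Col-0 (-0.04) and the AT2G22510 effect against myb72-2 (-0.05).

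Counts that moved by over 1.5 times included the following. Between myb72-2 and Col-0 controls 9 probe sets became 1 with only the arrays compared. With WCS417 the 29 became 45 with a variance trend and 6 with only the arrays compared. Between oxMYB72 and myb72-2 with WCS417, 1256 became 588 with only the arrays compared, where 651 higher became 266 and 605 lower became 322. Between oxMYB72 and Col-0 with WCS417, 460 higher became 290 in the same setting. For the effect in myb72-2 against Col-0, 4 became 2 without the dimmest probe sets. Of the related genes between oxMYB72 and myb72-2 controls, 1 higher became 2 with centring or a trend, and 1 lower became 2 with quantile normalization and 3 with a trend, only the arrays compared or no dimmest probe sets. Median centring also changed the split of higher and lower calls, not always by over 1.5 times. The split went from 804 and 744 to 994 and 481 between oxMYB72 and myb72-2 controls. Between oxMYB72 and Col-0 controls it went from 871 and 815 to 1067 and 573. For the effect in oxMYB72 against myb72-2 it went from 211 and 422 to 124 and 488. The causes were not tested.

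Leaving out 1 array at a time turned the sign of uncalled member differences, and these ranges give the lowest and highest values. Between myb72-2 and Col-0 controls they were -0.07 to 0.06 for AT2G22510 and -0.02 to 0.11 for AT4G38080. With WCS417 they were -0.69 to 0.05 and -0.29 to 0.08. Between oxMYB72 and myb72-2 controls they were -0.23 to 0.13 and -0.13 to 0.10. With WCS417 they were -0.48 to 0.26 and -0.32 to 0.09, and -0.05 to 0.28 for AT1G62510. Between oxMYB72 and Col-0 controls they were -0.22 to 0.14 for AT2G22510 and -0.11 to 0.12 for AT4G38080. With WCS417 they were -0.25 to 0.08 for AT1G62510 and -0.42 to 0.02 for AT4G38080. Effects in myb72-2 against Col-0 spanned -0.26 to 0.21 for AT4G12500, -0.04 to 0.11 for AT1G62510, -0.69 to 0.05 for AT2G22510 and -0.31 to 0.06 for AT4G38080. Effects in oxMYB72 against Col-0 spanned -0.16 to 0.17 for AT1G62510 and -0.40 to 0.03 for AT4G38080. Against myb72-2 they spanned -0.19 to 0.14 for AT1G62510, -0.38 to 0.35 for AT2G22510 and -0.29 to 0.12 for AT4G38080.

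The fall of AT1G62510 in oxMYB72 spanned -2.58 to -2.25, with -2.58 lacking the third WCS417 array. Probe sets called spanned 2290 to 3005 for WCS417 in Col-0 (2290 without the third control array), 1 to 8 and 11 to 121 for myb72-2 against Col-0 without and with WCS417, and 1005 to 1219 for oxMYB72 against myb72-2 controls. There the 744 called lower spanned 412 to 514, moving by over 1.5 times in 5 of 6 fits, and the related genes called lower spanned 0 to 2. The 1452 called higher in Col-0 became 917 without the third control array, and the 211 called higher for the effect in oxMYB72 against myb72-2 spanned 113 to 236. Between oxMYB72 and Col-0 controls the 815 called lower spanned 443 to 686. The 5 related genes lower in oxMYB72 than in myb72-2 with WCS417 spanned 3 to 5.

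Replicate numbers were not used to pair the arrays in the main fit. Deviations of same-numbered arrays correlated over 0.1 in 12 of 45 pairs, and 8 of 18 arrays correlated best with an array of their own number. No count over 0.1 was made for differently numbered pairs, so these counts cannot exclude a batch shared by number. With the replicate block the probe sets called for the mean WCS417 effect went from 8549 to 8547, in Col-0 from 3491 to 3426 and between oxMYB72 and myb72-2 controls from 1548 to 1511, and no tested call of the 4 genes changed.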
